A study of Mus musculus with 8 samples.

Results

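The genes described here are 10 mouse genes of Reelin signalling and of the microtubule machinery of neuronal migration, namely Reln, Vldlr, Lrp8, Dab1, Cdk5, Dcx, Tuba1a, Pafah1b1, Nde1 and Ndel1. They were chosen by symbol for their place in the pathway, with earlier results of these data known, and all 10 were found among the 27179 genes of the deposited count table. Polyadenylated RNA of the embryonic cerebral cortex was sequenced from 4 Taf8-deleted embryos, labelled Taf8 -/lox and knock-out, and from 4 wild-type embryos, labelled Taf8 +/+. Each library came from 1 embryo. The protein TAF8 belongs to TFIID, a general transcription factor that sits on promoters and brings in RNA polymerase II. The sources used here do not give the embryonic day, the sex or the Cre driver, and by their label the wild-type embryos carry no lox allele.

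Reelin is a large secreted glycoprotein made in the embryonic cortex mainly by Cajal-Retzius cells at the surface, and later also by interneurons. It binds the receptors VLDLR and ApoER2, the product of Lrp8, on migrating neurons, and the bound receptors lead Src-family kinases to phosphorylate the adaptor DAB1. The kinase CDK5 acts beside this pathway. LIS1, the product of Pafah1b1, works with NDE1 and NDEL1 on the motor dynein, which pulls the nucleus and centrosome of a migrating cell, while doublecortin (Dcx) binds and stabilizes microtubules built in part from the alpha-tubulin Tuba1a. In humans, mutations of DCX, PAFAH1B1 and TUBA1A cause a smooth cortex (lissencephaly), and mice without Reln or Dab1 have inverted cortical layers.

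TFIID acts at promoters, so the bases before the start sites of the 4 genes that fell are shown with those of Reln, which did not pass the test. RefSeq's promoter table (GRCm38.p6) held 9 of the 10 genes. Where a gene has several listed starts, the most 5′ one is shown, and the counts do not tell which start was used. Each line gives the 120 bases before the start, 5′ to 3′ on the gene's strand, and capitals mark a GC box, searched for as GGGCGG, or the core of a TATA element, searched for with the letters TATAAA, on either strand.
Lrp8: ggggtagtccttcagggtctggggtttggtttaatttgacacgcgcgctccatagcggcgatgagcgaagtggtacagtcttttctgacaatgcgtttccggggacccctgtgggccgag
Vldlr: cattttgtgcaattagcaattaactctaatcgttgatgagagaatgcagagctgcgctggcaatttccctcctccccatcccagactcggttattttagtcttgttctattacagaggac
Dab1: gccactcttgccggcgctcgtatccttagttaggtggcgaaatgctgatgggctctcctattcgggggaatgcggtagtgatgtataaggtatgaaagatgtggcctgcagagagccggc
Dcx: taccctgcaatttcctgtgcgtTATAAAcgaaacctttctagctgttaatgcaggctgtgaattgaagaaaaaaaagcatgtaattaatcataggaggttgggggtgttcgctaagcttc
Reln: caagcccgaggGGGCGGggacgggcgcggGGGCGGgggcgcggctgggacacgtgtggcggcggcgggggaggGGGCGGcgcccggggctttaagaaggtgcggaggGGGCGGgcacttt
The windows are chr4:107802765-107802884 (plus strand), chr19:27216364-27216483 (plus), chr4:103619380-103619499 (plus), chrX:143933220-143933339 (minus) and chr5:22344706-22344825 (minus). Over the full 250 bases before the start, the Reln sequence was 80.0% G and C, with 37 CpG dinucleotides and 6 GC boxes. That of Dcx was 41.6% G and C, with 3 CpG dinucleotides and 1 TATAAA, at position -98 from the start. The other genes that fell held no TATAAA there, and their sequences ranged on both sides of the median of all promoters, at 62.4% G and C with 18 CpG for Lrp8, 56.4% with 10 for Dab1 and 41.6% with 5 for Vldlr. These values depend on the start shown. A further listed start of Dab1 had 78.0% G and C with 40 CpG, and that of Vldlr 66.4% with 18, each with 1 GC box. Further starts had 52.8% and 53.6% for Lrp8 and 44.8% for Dcx. Of the other genes that did not pass, Pafah1b1 had 73.2%, Nde1 67.2% and Tuba1a 56.8%. Across all 32851 promoters of the table the median was 52.4% G and C with 6 CpG dinucleotides. GGGCGG was found in 32.7% of them and TATAAA in 12.4%. The CCAAT box was found in 33.85% of them, the E-box spelled CAGATG in 14.4% and the cyclic AMP element spelled TGACGTCA in 1.55%. All were searched on both strands. Of the last group, the CCAAT box lay before the shown starts of Dab1 and Dcx, outside the printed bases. A match describes the sequence and is not a measured binding site.

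Taf8 RNA checked the labels. It averaged 0.643 ± 0.149 CPM (counts per 1000000 counts of the library, scaled by TMM) in Taf8-deleted cortex and 34.8 ± 2.75 CPM in wild-type cortex (SD, n = 4 embryos each, as for every mean below). Library totals ran from 26312505 to 65523487 counts in genes, and 3 counts equal 0.0458 to 0.114 CPM, which reflects counting error alone. The lowest count of any of the 10 genes in any library was 1437, so all lay far above that floor. The first part of the animal number in the labels is shared by wild-type replicates 1, 2 and 3 and by no deleted and wild-type pair. If it marks a litter, the litter and the Taf8 genotype cannot be told apart. All 9 markers of cortical excitatory neurons were detected, at summed levels of 1348 to 1595 CPM in deleted and 2465 to 2839 CPM in wild-type libraries. Choroid plexus markers, at the border of the dissected tissue, summed to 13.5 to 1207 CPM in deleted and 14.9 to 404.7 CPM in wild-type libraries, with the highest values in deleted replicate 1 and wild-type replicate 4.

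Of the 10 genes, 4 were lower in Taf8-deleted cortex, 2 were higher and 4 did not pass the test. The test was edgeR's quasi-likelihood test with Benjamini-Hochberg adjustment over all 15649 genes tested and a threshold of 0.05. By the same rule 59.2% of all genes were called, 29.5% higher and 29.6% lower, so a count of 6 in 10 is close to the background and sets these genes apart in no way. The doublecortin gene Dcx, both Reelin receptor genes and the adaptor gene Dab1 fell, Cdk5 and Ndel1 rose by small amounts, and Reln, Pafah1b1, Nde1 and Tuba1a did not pass. The Ndel1 call was lost with each of 7 of the 8 libraries left out in turn (edgeR adjusted p = 0.0694 to 0.144), which left 1 gene higher. The libraries of the groups did not overlap in the same 6 genes, against 53.6% of all genes, 26.6% with the deleted libraries above and 27.0% with them below. The median log2 fold change was -0.06 over the 10 genes and 0.01 over all genes. In bulk tissue, fewer cells of a type and less RNA per cell cannot be told apart. Levels are scaled to the other genes of each library, so higher and lower are relative. A change in the total RNA per cell would not show.

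**Figure D1:**
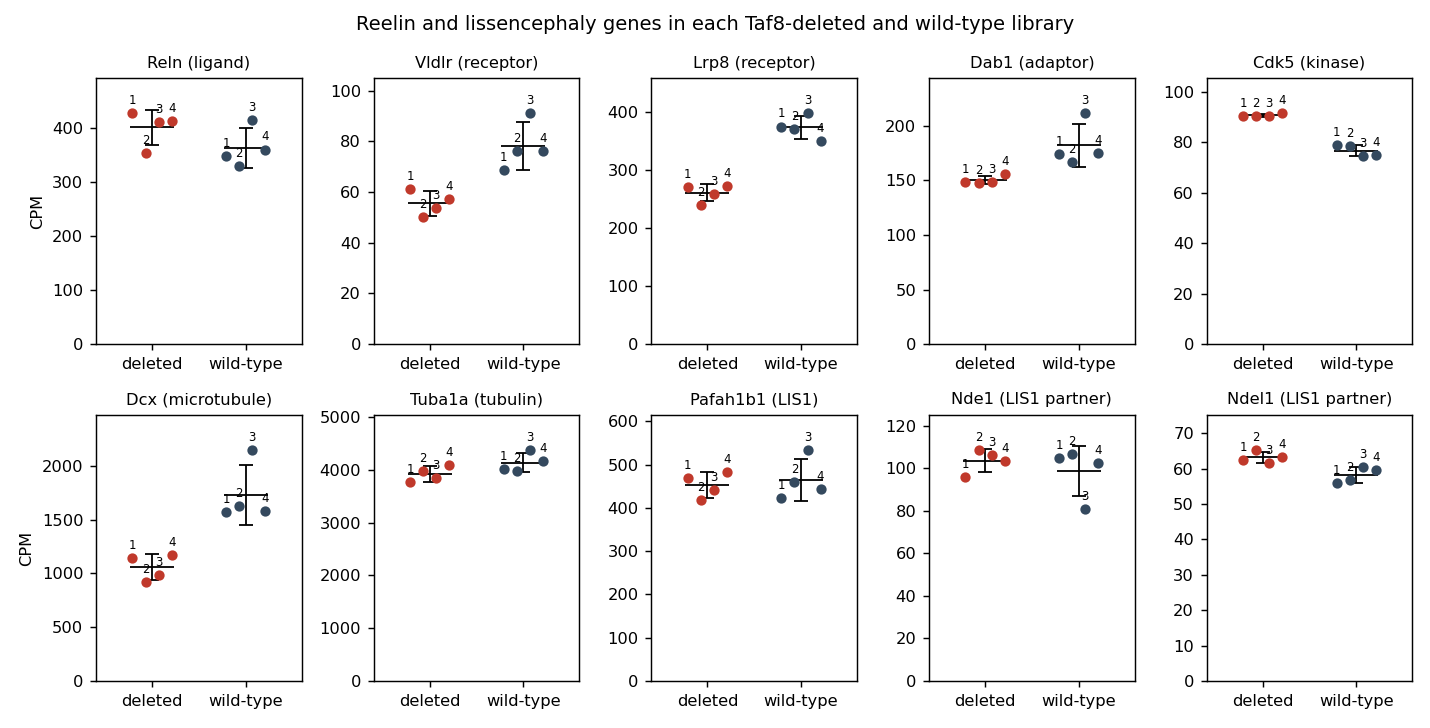
Level of each of the 10 genes in CPM (vertical axes, from 0) in the 4 Taf8-deleted libraries (red, left) and the 4 wild-type libraries (dark, right). Numbers are replicate numbers, and bars are the mean and SD. The groups are separate in Vldlr, Lrp8, Dab1, Dcx, Cdk5 and Ndel1, and wild-type replicate 3 is the highest library for Dcx at 2150 CPM.

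**Figure D2:**
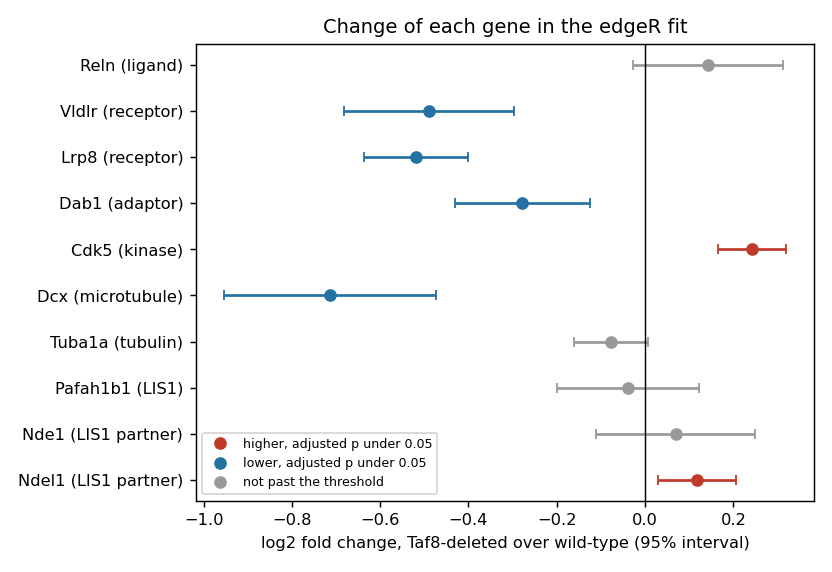
Log2 fold change of Taf8-deleted over wild-type cortex for each of the 10 genes (horizontal axis), with the 95% interval of the edgeR fit as bars. Blue genes were lower, red genes higher, and the intervals of the 4 grey genes include 0. Dcx has the largest fall, at -0.71.

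The ligand gene Reln (Entrez gene 19699, chromosome 5, 21884454 to 22344705, minus strand, mm10) had 427.3, 353.7, 410.7 and 412.3 CPM in Taf8-deleted replicates 1 to 4, against 348.6, 329.4, 414.2 and 360.0 CPM in wild-type replicates 1 to 4. Of the deleted libraries 3 lay above wild-type replicates 1, 2 and 4, and wild-type replicate 3 lay among the deleted values, so the groups overlapped. Its log2 fold change was 0.14 (SE 0.08, 95% interval -0.03 to 0.31, edgeR adjusted p = 0.132). Without wild-type replicate 3 it was 0.21 and passed (adjusted p = 0.0142), with voom quality weights it was 0.21 and with library size alone 0.18 (adjusted p = 0.00973 and 0.0478). Because the call turns on wild-type replicate 3 and on the scaling and weighting used, the data do not settle whether Reln RNA was higher. An antisense transcript, Gm10475, shares 246 exonic bases with Reln in GENCODE, and the strand setting of the counting is not stated in the labels.

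Markers of Cajal-Retzius cells, the main early source of Reelin, went both ways. Of 9 markers other than Reln, 4 rose, 2 fell and 3 missed the threshold. The 66.7% called lie near the 59.2% of all genes, so the count does not set these markers apart. The transcription factor gene Ebf3 had 58.4 ± 2.74 CPM in deleted and 26.8 ± 1.99 CPM in wild-type cortex, and its relative Ebf2 had 12.7 ± 0.952 CPM in deleted and 6.4 ± 0.494 CPM in wild-type cortex. Lhx1 was 1.37-fold higher and Lhx5 also rose, with a log2 fold change of 0.33. The calcium channel subunit gene Cacna2d2 fell by 0.17 on the log2 scale, and Calb2, which encodes calretinin, fell by 0.39. The 3 that did not pass had log2 fold changes near 0, at -0.01 for Trp73, -0.02 for Nhlh2 and -0.05 for Ndnf. Summed over the 9 markers the level was 278.1 to 296.0 CPM in deleted and 235.5 to 269.4 CPM in wild-type libraries, and no marker was at 0. On average these sums differed by no more than Ebf3 alone did, so they do not show a rise of the markers as a set. The part of these cells in the Reln values was not tested. Leaving out any single library other than wild-type replicates 1 or 3 or deleted replicate 4 left 1 of the markers lower in place of 2.

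Both Reelin receptor genes fell. Vldlr (chromosome 19, 27216480 to 27254231, plus strand) encodes the very low density lipoprotein receptor. It had 61.2, 50, 53.7 and 57.2 CPM in the deleted libraries, against 68.6, 76.1, 91.1 and 76.1 CPM in the wild-type libraries. Every deleted library lay below every wild-type library, and the closest values were those of both replicates 1. The log2 fold change was -0.49 (SE 0.09, adjusted p = 0.000668), a level 71.2% of wild-type. Lrp8 (chromosome 4, 107802200 to 107876840, plus strand) encodes ApoER2. Its values were 270.1, 240.5, 258.5 and 273.0 CPM in the deleted libraries, against 374.9, 369.8, 398.0 and 350.7 CPM in the wild-type libraries. No values of the groups came near each other, and the log2 fold change was -0.52 (SE 0.05, adjusted p = 1.39e-05), a level 69.8% of wild-type. Both calls held with each of the 8 libraries left out in turn, with log2 fold changes of -0.56 to -0.41 for Vldlr and -0.56 to -0.49 for Lrp8.

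Measured per length, Lrp8 was the more abundant receptor RNA. Levels in CPM per kilobase of counted length were 33.9 ± 1.92 in deleted and 48.6 ± 2.53 in wild-type cortex for Lrp8, and 6.68 ± 0.575 in deleted and 9.39 ± 1.13 in wild-type cortex for Vldlr. The ratio of Vldlr to Lrp8 on this scale averaged 0.197 ± 0.00837 in deleted and 0.193 ± 0.018 in wild-type libraries, and the groups overlapped. The ratio of Reln to the sum of both receptors was 0.858, 0.809, 0.874 and 0.83 in deleted libraries, against 0.522, 0.491, 0.564 and 0.561 in wild-type libraries. The summed receptors themselves were 37.4 to 42.5 CPM per kilobase in deleted and 54.8 to 62.8 in wild-type libraries, without overlap. The ratio, in which the groups were far apart, therefore carries the fall of the receptors. It is no separate result on Reln, in which the groups overlapped.

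**Figure D3:**
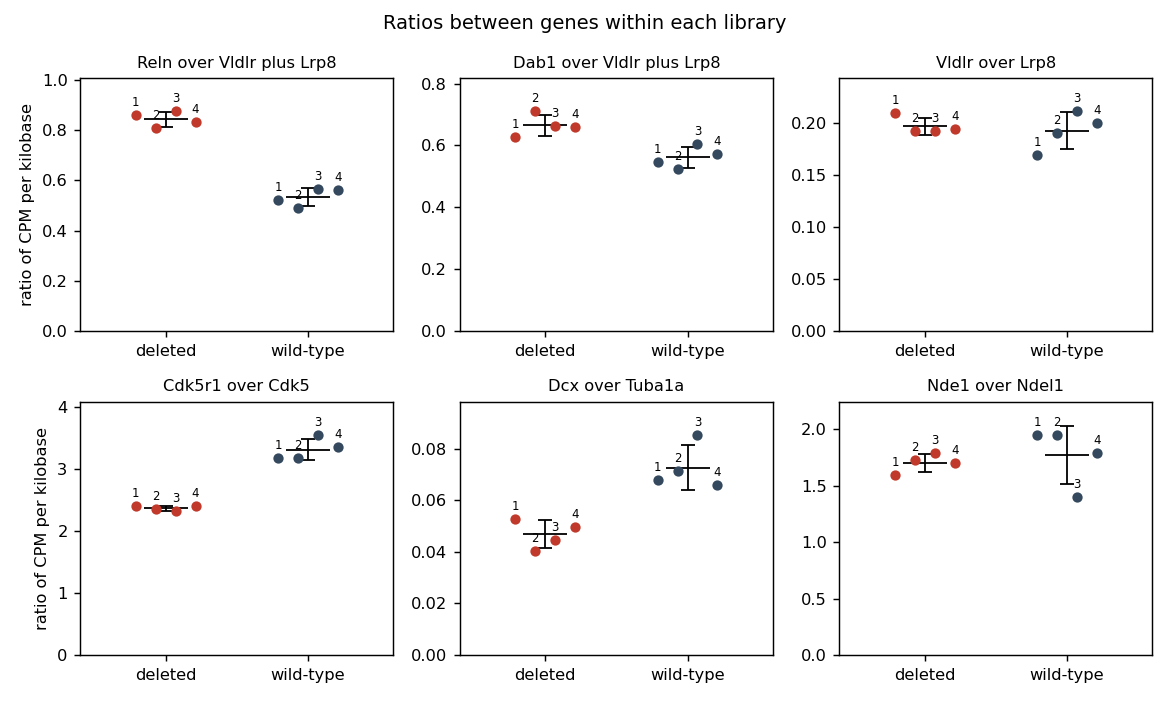
Ratios of levels per kilobase between genes of the same library (vertical axes, from 0) in the 4 Taf8-deleted libraries (red, left) and the 4 wild-type libraries (dark, right), with replicate numbers, mean and SD. The ratio of Reln to the receptors is 0.843 in deleted and 0.534 in wild-type libraries on average, and the ratio of Vldlr to Lrp8 overlaps between the groups.

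The adaptor gene Dab1 (chromosome 4, 103619500 to 104744844, plus strand), whose protein docks on the receptor tails, fell less than the receptors. It had 148.8, 148.0, 148.2 and 156.3 CPM in the deleted libraries, against 174.5, 167.3, 211.7 and 175.1 CPM in the wild-type libraries. The deleted values were close together and all lay below the wild-type values. Its log2 fold change was -0.28 (SE 0.07, edgeR adjusted p = 0.00535), or 82.5% of wild-type. Against a change of 1.2-fold it did not pass (adjusted p = 0.421). Per length, Dab1 amounted to 0.665 ± 0.0343 of the summed receptors in deleted libraries and 0.562 ± 0.0347 in wild-type libraries, without overlap.

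Cdk5 (chromosome 5, 24407597 to 24423587, minus strand), the kinase that acts beside Reelin in neuronal positioning, rose. It had 90.6, 90.5, 90.3 and 91.6 CPM in the deleted libraries, against 78.9, 78.4, 74.7 and 74.9 CPM in the wild-type libraries. The deleted libraries were nearly equal, with an SD of 0.583 CPM, and all lay above the wild-type libraries. On the log2 scale the fold change was 0.24 (SE 0.03, edgeR adjusted p = 0.000158), or 1.18-fold. The activator of this kinase in neurons, p35, is encoded by Cdk5r1, which moved the other way, with 431.5 ± 10 CPM in deleted and 510.6 ± 14.3 CPM in wild-type cortex (log2 fold change -0.24, adjusted p = 0.000191). Per length, the ratio of Cdk5r1 to Cdk5 was 2.32 to 2.41 in deleted libraries, against 3.18 to 3.55 in wild-type libraries. Cdk5r2, which encodes the related activator p39, did not pass (log2 fold change 0.08).

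Dcx fell most of the 10 genes. Doublecortin marks migrating and newly born neurons, and its gene lies on chromosome X (143855842 to 143933396, minus strand). It had 1143, 923, 989.1 and 1173 CPM in the deleted libraries, against 1573, 1631, 2150 and 1581 CPM in the wild-type libraries. All deleted libraries lay below all wild-type libraries, and wild-type replicate 3 stood above the other 3 wild-type libraries. Its log2 fold change was -0.71 (SE 0.11, edgeR adjusted p = 0.000238), or 61.0% of wild-type, and 6.75% of all tested genes had a lower log2 fold change. Without wild-type replicate 3 it was -0.59, and the call held without any single library. Of 16 markers shared by most neurons, 14 were lower, 1 higher and 1 not past the test, where 29.6% of all genes were called lower. Summed levels of these markers were 4155 to 4621 CPM in deleted and 4892 to 5798 CPM in wild-type libraries. Wild-type replicate 3 had the highest of these sums as well as the highest Dcx level. The part of the neuronal share of the tissue in the fall of Dcx was not tested.

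The tubulin gene Tuba1a (chromosome 15, 98949847 to 98953501, minus strand), the most abundant of the 10, did not pass. It had 3769, 3980, 3838 and 4095 CPM in the deleted libraries, against 4014, 3974, 4378 and 4171 CPM in the wild-type libraries. The groups overlapped, with a log2 fold change of -0.08 (SE 0.04, 95% interval -0.16 to 0.01, adjusted p = 0.101). It passed as lower without deleted replicate 4 or wild-type replicate 2 (log2 fold change -0.11 in both fits, adjusted p = 0.0485 and 0.0398). The near-identical gene Tuba1b had 160.3 ± 11.2 CPM in deleted and 179.0 ± 23.1 CPM in wild-type cortex. How reads that map to both were treated is not stated in the labels, so the level of Tuba1a is uncertain, and GENCODE places a further gene, Gm49450, over 473 of its exonic bases on the same strand. The ratio of Dcx to Tuba1a per length was 0.0469 ± 0.00548 in deleted and 0.0727 ± 0.00875 in wild-type libraries, and the groups did not overlap. As Tuba1a differed little, this ratio carries the fall of Dcx and is no separate result.

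The LIS1 gene Pafah1b1 (chromosome 11, 74673949 to 74724384, minus strand) did not differ beyond the spread between libraries. It had 470.1, 418.3, 441.4 and 482.8 CPM in the deleted libraries, against 422.3, 460.9, 534.5 and 443.6 CPM in the wild-type libraries. The deleted values lay within the range of the wild-type values except for deleted replicate 2, which was the lowest of all 8. The log2 fold change was -0.04 (95% interval -0.20 to 0.12, adjusted p = 0.673), an interval that excludes a change as large as that of either receptor gene. Its sign turned to 0.03 without wild-type replicate 3.

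Nde1 and Ndel1, related genes whose proteins tie LIS1 to dynein, gave small or no differences. Nde1 (chromosome 16, 14163275 to 14192928, plus strand), needed by dividing progenitors, had 95.9, 108.6, 106.1 and 103.3 CPM in the deleted libraries, against 104.8, 106.4, 81.0 and 102.6 CPM in the wild-type libraries. Apart from wild-type replicate 3, the lowest of all, the values of both groups ran together. The log2 fold change was 0.07 (95% interval -0.11 to 0.25, adjusted p = 0.482), and -0.02 without wild-type replicate 3. Nde1 shares 77 exonic bases with Marf1 on the opposite strand, which did not pass either (log2 fold change 0.03). Ndel1 (chromosome 11, 68821434 to 68853146, minus strand), used mainly by migrating neurons, had 62.4, 65.3, 61.7 and 63.2 CPM in the deleted libraries, against 55.9, 56.8, 60.4 and 59.6 CPM in the wild-type libraries. The deleted values lay just above the wild-type values, and the nearest libraries were both replicates 3. Its log2 fold change was 0.12 (SE 0.04, edgeR adjusted p = 0.0269), or 1.08-fold. With 1 library left out, that call held only without wild-type replicate 3.

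**Figure D4:**
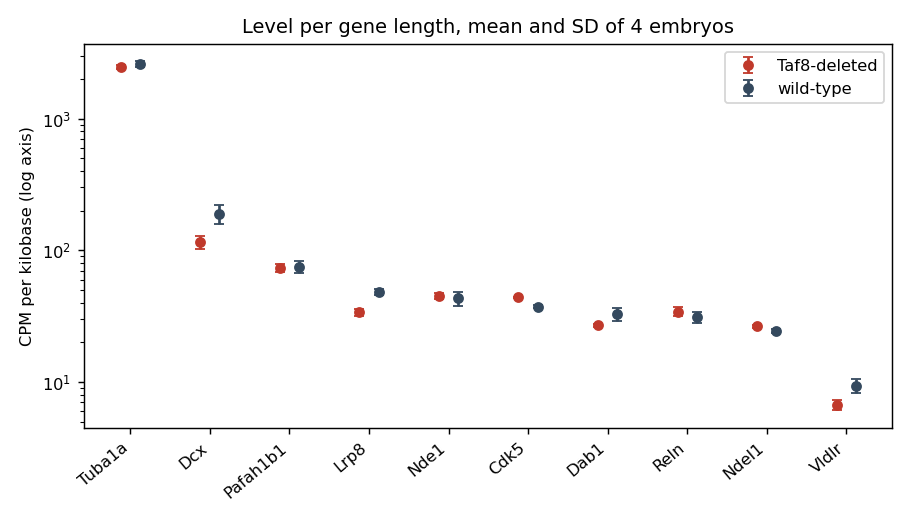
Level of the 10 genes in CPM per kilobase of counted length (log axis), as mean and SD of the 4 Taf8-deleted libraries (red, left) and the 4 wild-type libraries (dark, right), ordered by the wild-type mean. Tuba1a is highest, at 2464 in deleted and 2599 in wild-type cortex, and Vldlr is lowest, at 6.68 in deleted and 9.39 in wild-type cortex.

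Per kilobase the 10 genes spanned a wide range. Tuba1a, at 2464 ± 91.5 in deleted and 2599 ± 115.4 in wild-type cortex, stood far above Dcx, at 115.5 ± 13.1 in deleted and 189.4 ± 30.5 in wild-type cortex. Pafah1b1 came next, at 73.4 ± 4.69 in deleted and 75.3 ± 7.89 in wild-type cortex. In wild-type cortex Lrp8 (48.6 ± 2.53), Nde1 (43.2 ± 5.19) and Cdk5 (37.3 ± 1.09) followed, then Dab1 (32.6 ± 3.59), Reln (31.0 ± 3.11), Ndel1 (24.5 ± 0.904) and Vldlr. Dab1 and Reln lay within an SD of each other, as did Lrp8 and Nde1 when both SDs are counted. In deleted cortex Nde1 (45.2 ± 2.4) and Cdk5 (44.1 ± 0.283) were above Reln (34.3 ± 2.77) and Lrp8 (33.9 ± 1.92), and Dab1 (26.9 ± 0.715) was level with Ndel1 (26.6 ± 0.657).

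The wider pathway was read from 7 lists that hold none of the 10 genes. Of their 136 genes 135 were tested, with 33 higher, 62 lower and 40 not past the test. That is 70.4% called, against 59.2% of all genes, and the median log2 fold change was -0.12. Below, the genes with the smallest adjusted p of each list are named first, and others were picked out after their values were seen. Leaving out any single library moved none of the higher or lower counts of these 7 lists by over 1.5 times.

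**Figure D5:**
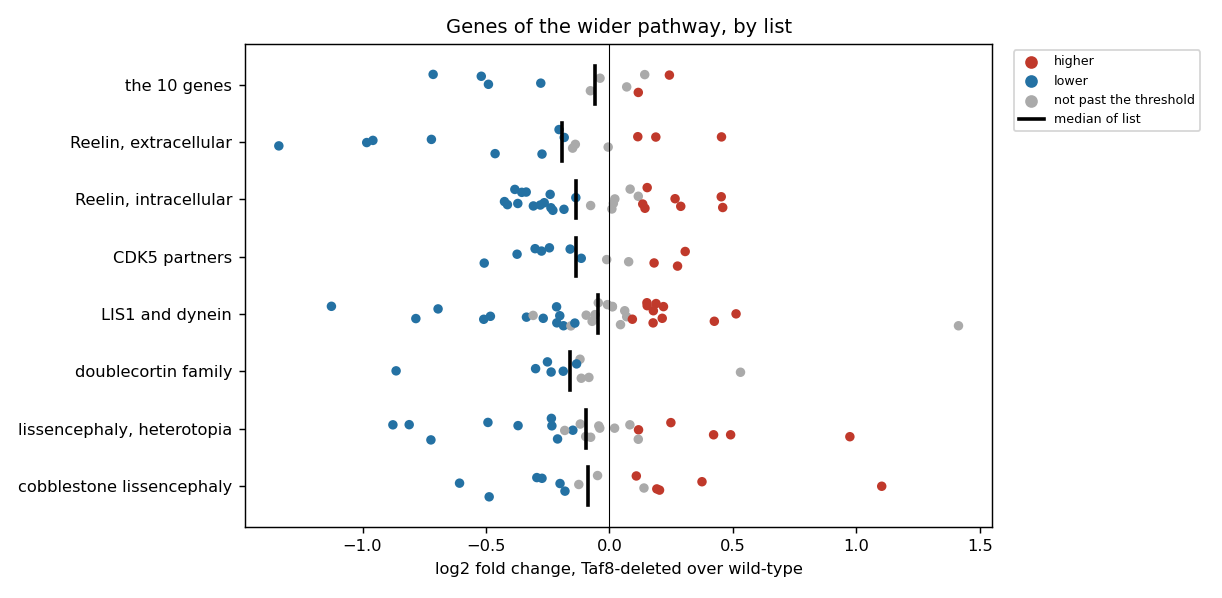
Log2 fold change of Taf8-deleted over wild-type cortex (horizontal axis) for each tested gene of the 10 genes and of the 7 lists of the wider pathway. Points are genes, coloured by the edgeR call, and black bars are list medians, which run from -0.19 (Reelin, extracellular) to -0.05 (LIS1 and dynein).

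Outside the cell, 3 of 5 genes for enzymes that cut Reelin fell, where 29.6% of all genes were called lower. These 5 are a part of the list that follows and were not tested as a set. Of 14 genes for Reelin processing, other receptor ligands and receptor handling, 8 were lower, 3 higher and 3 not past the test (median -0.19). Adamts3, the main protease that inactivates Reelin in the embryonic mouse brain, had 33.7 ± 2.71 CPM in deleted and 66.7 ± 6.09 CPM in wild-type cortex (adjusted p = 1.9e-06). Adamts4, another such protease, had 6.16 ± 0.518 CPM in deleted and 11.9 ± 0.339 CPM in wild-type cortex (adjusted p = 2.73e-06). Adamts2 also fell, by 0.72 on the log2 scale, at a low level of 0.852 ± 0.19 CPM in deleted and 1.38 ± 0.125 CPM in wild-type cortex. Adamts5 did not pass (log2 fold change -0.14) and nor did Plat, which encodes tissue plasminogen activator (-0.15). Thbs1, which encodes thrombospondin, a further ligand of ApoER2, had 15.9 ± 3.33 CPM in deleted and 40.1 ± 1.68 CPM in wild-type cortex, a log2 fold change of -1.34. The ephrin gene Efnb2 rose by a log2 fold change of 0.19. Apoe, a lipoprotein ligand of both receptors, rose by 0.45, with groups that overlapped. The Reelin-binding integrin subunits moved apart, with Itga3 lower by a log2 fold change of -0.46 and Itgb1 higher by 0.12.

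Inside the cell, 14 of 27 genes downstream of Reelin were lower, 7 were higher and 6 did not pass (median -0.14). Src and Fyn, kinases that phosphorylate DAB1, both fell, Src to 139.6 ± 6.59 CPM in deleted against 187.5 ± 10.5 CPM in wild-type cortex, and Fyn by 0.18 on the log2 scale. Their relative Yes1 rose by 0.27. Rapgef1, an exchange factor for the GTPase RAP1, had 213.3 ± 2.92 CPM in deleted and 284.0 ± 15.4 CPM in wild-type cortex (adjusted p = 2e-05), while the adaptor genes Crk and Crkl that link it to DAB1 rose by log2 fold changes of 0.29 and 0.15. Limk1, a kinase that acts on cofilin, had a log2 fold change of -0.355, and the cofilin gene Cfl1 one of -0.24. The adhesion gene Nectin3 rose 1.37-fold, and its partner inside the cell, Afdn, fell by 0.38. The cadherin gene Cdh2 did not pass (log2 fold change 0.02). Genes of DAB1 turnover were mixed, with Socs6 higher by 0.46, Rnf7 higher by 0.14, Socs7 lower by a log2 fold change of -0.14 and Cul5 not past the test (0.02).

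Among 12 partners and substrates of CDK5, 7 were lower, 3 higher and 2 not past the test (median -0.14). Pak1, an actin-regulating kinase, had 134.6 ± 5.61 CPM in deleted and 174.5 ± 5.23 CPM in wild-type cortex, and Dixdc1 had 51.0 ± 2.94 CPM in deleted and 72.5 ± 7.69 CPM in wild-type cortex. Amph, which encodes amphiphysin, fell by 0.30 on the log2 scale. Cables1 and Cables2, which encode CDK5-binding proteins, rose by log2 fold changes of 0.31 and 0.28.

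LIS1 and dynein genes were mixed, with 12 of 35 lower, 10 higher and 13 not past the test (median -0.05). The dynactin subunit gene Dctn4 had 73.2 ± 3.85 CPM in deleted and 126.1 ± 3.27 CPM in wild-type cortex (adjusted p = 2.93e-07). The light chain genes went opposite ways, Dynll1 with 167.7 ± 8.65 CPM in deleted and 271.4 ± 3.34 CPM in wild-type cortex and Dynll2 with 584.1 ± 19.0 CPM in deleted and 409.2 ± 5.55 CPM in wild-type cortex. Bicd2, an adaptor that links dynein to its cargo, rose 1.34-fold. The intermediate chain gene Dync1i1 fell by 1.13 on the log2 scale, while the heavy chain gene Dync1h1, mutated in human cortical malformations, rose by 0.19. Ywhae, which encodes the 14-3-3 protein that binds NDEL1 and is deleted together with LIS1 in human Miller-Dieker syndrome, fell by 0.34. The other subunits of the LIS1 enzyme complex differed little, with Pafah1b2 lower by a log2 fold change of -0.20 and Pafah1b3 not past the test (0.05).

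In the doublecortin family and its partners, 6 of 10 genes were lower and the other 4 did not pass (median -0.16). Their falls were smaller than that of Dcx except for Dclk3, a kinase gene of low level with 3.22 ± 0.44 CPM in deleted and 5.82 ± 0.501 CPM in wild-type cortex. Dclk2 fell by 0.25 and Dclk1 by 0.19 on the log2 scale. Ppp1r9b, which encodes spinophilin, a binding partner of doublecortin, had 272.7 ± 6.51 CPM in deleted and 335.6 ± 9.99 CPM in wild-type cortex. The microtubule-affinity kinase genes Mark1 and Mark2 fell by 0.24 and 0.13. Map1b did not pass (log2 fold change -0.08).

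Other genes of human lissencephaly and neuronal heterotopia fell in 9 of 23 tested and rose in 5, and the remaining 9 did not pass (median -0.10). The beta-tubulin gene Tubb5 had 2146 ± 123.9 CPM in deleted and 3939 ± 178.9 CPM in wild-type cortex (adjusted p = 1.98e-07), while Tubb2a and Tubb2b fell by 0.37 and 0.21 on the log2 scale and Tubb3 did not pass (-0.04). Tubulin genes have close copies, so these levels are uncertain as well. The ubiquitin ligase gene Nedd4l had 157.5 ± 5.21 CPM in deleted and 276.4 ± 5.22 CPM in wild-type cortex and the centrosomal gene Cep85l had 11.1 ± 0.455 CPM in deleted and 18.3 ± 1.01 CPM in wild-type cortex. Arfgef2, a vesicle-traffic gene, rose 1.34-fold. The filamin gene Flna fell by 0.15.

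Genes of cobblestone lissencephaly, in which neurons migrate past the surface of the brain, split evenly. Of 14 genes, most of which add sugars to dystroglycan, 6 were lower, 5 higher and 3 not past the test (median -0.09). B4gat1 rose 1.3-fold, with 44.1 ± 1.58 CPM in deleted and 34.0 ± 1.56 CPM in wild-type cortex. Pomk had 20.8 ± 0.413 CPM in deleted and 31.6 ± 1.55 CPM in wild-type cortex, and the dystroglycan gene Dag1 fell by 0.20 on the log2 scale. Meningeal markers, which come from the surface these neurons would cross, were higher in 5 of 8, and the other 3 did not pass. Of all genes 29.5% were called higher. The meningeal markers summed to 18.2 to 129.9 CPM in deleted and 14.7 to 34.5 CPM in wild-type libraries. In each of these markers the libraries of the groups overlapped. Their higher count was 2 without deleted replicate 3 and 8 without deleted replicate 4. The part of such cells in these values was not tested.

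Markers of the cell types that express the 10 genes differed between the groups as well. Beside the counts below, 29.5% of all genes were called higher and 29.6% lower. All 9 markers of cortical excitatory neurons were lower (median -0.74). Of 13 interneuron markers 9 fell and 3 rose, with Gad2 at 64.6 ± 4.26 CPM in deleted and 147.6 ± 4.89 CPM in wild-type cortex. Of 14 radial glia markers 7 rose and 5 fell, and their summed level was 3955 to 4344 CPM in deleted and 3309 to 3590 CPM in wild-type libraries. That sum is weighted towards the most abundant markers, Vim (1226 CPM in deleted, 809.3 CPM in wild-type cortex) and Nes (979.4 and 514.7 CPM). Among the 5 that fell were Fabp7 (336.2 and 480.3 CPM) and Ptprz1 (286.9 and 431.9 CPM). The sum therefore does not show a rise of these markers as a set. Of 5 intermediate progenitor markers 2 rose and 2 fell. All 11 vascular markers (endothelium and pericytes) rose, as did 3 of 6 microglia markers, with 1 lower, and 4 of 5 tested red cell markers. The libraries of the groups overlapped in each of those 4 red cell markers and in the vascular markers Pecam1, Kdr and Pdgfrb. Without deleted replicate 3 the vascular count was 7, and without deleted replicate 1 or 2 the red cell count was 2. The higher count of intermediate progenitor markers was 1 without deleted replicate 3 or 4 or wild-type replicate 1, 3 or 4. Of 5 choroid plexus markers 0 passed by edgeR with TMM or by limma voom, and 1 was higher at an unadjusted edgeR p under 0.05. DESeq2 called 1 as higher, as did edgeR with upper-quartile scaling, library size alone, no filter, a filter of 1 CPM in 4 libraries or deleted replicate 4 left out, and all 5 passed as higher without wild-type replicate 4. The part of any of these cell types in the values of the 10 genes was not tested.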

How the data were processed

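Per the submitters' processing notes, reads were counted with Subread 1.5.0 and featureCounts on mm10. The deposited values are raw counts per Entrez gene, with no normalization, and the authors' table also gives the gene length used here for levels per kilobase. A strand-specific mRNA kit was used for the libraries, per the labels' protocols. For the annotation, strand setting and multi-mapping reads, nothing is given in the sources used here. The matrix and the single-sample files differed in 0 values. Symbols and coordinates came from RefSeq (GRCm38.p6, the sequence of mm10) for 25275 of 27179 genes, and exon overlaps and antisense genes from GENCODE.

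Totals were 26312505 to 65523487 counts per library. Library pairs within a group differed beyond sampling noise (chi-square per degree of freedom 3.56 to 26.98), so none was merged. The highest values, 22.06 to 26.98, were those of the pairs with wild-type replicate 3, the deepest library. Other wild-type pairs gave 4.79 to 6.98 and deleted pairs 3.56 to 15.55. This measure grows with depth, and the part of depth was not tested. The main test was edgeR 4.0.16 under R 4.3.3 (TMM, filterByExpr, quasi-likelihood F-test on group, Benjamini-Hochberg adjustment over 15649 genes, threshold 0.05). Standard errors are the log2 fold change over the square root of F. For Taf8 an exact permutation test was added (two-sided p = 0.0286 over 70 permutations, the smallest possible). CPM uses TMM-scaled library sizes.

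The 10 genes, the 7 pathway lists and the 11 marker lists were chosen with earlier results of these data known. Named genes are the 10, genes from the top 4 of each list by adjusted p, the 5 most like Reln, and others said to be picked out after their values were seen. Some genes of these lists are counted but not reported here by name. Promoters are RefSeq windows of 250 bases before the start. Alternatives were other scalings and filters, DESeq2 1.42.0, limma 3.58.1 voom (also with quality weights), a replicate block, each library left out, single-sample files, a threshold of 0.01 and a test against 1.2-fold. A fit without deleted replicate 1 and wild-type replicate 4 was added after seeing the data. The steps were tested on simulated counts.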

Additional observations from a re-analysis of the deposited data

Results flagged for a closer look

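In 3 of the 22 groups of 4 libraries examined (Taf8 and the 10 genes, each in both genotypes), 1 library stood far from the other 3, with a gap to its nearest neighbour that, as a share of the group's range, was above Dixon's 95% critical value. Chance alone gives about 1 in 20. Dab1 in Taf8-deleted replicate 4 was 156.3 CPM, where the other deleted libraries held 148.0 to 148.8 CPM, a small distance that stands out because those 3 were nearly equal. Dcx in wild-type replicate 3 was 2150 CPM, above the others at 1573 to 1631 CPM. Nde1 in wild-type replicate 3 was 81.0 CPM, below the others at 102.6 to 106.4 CPM. Wild-type replicate 3 is also the deepest library, with 65523487 counts.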

How the results depend on the processing

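The 4 lower calls (Dcx, Vldlr, Lrp8 and Dab1) held under every alternative run, except that Dab1 did not pass against a change of 1.2-fold. The number of the 10 genes called higher was 2, and it was 1 without a filter, with a threshold of 0.01, with the replicate block and without deleted replicate 1 and wild-type replicate 4. It was 3 with library size alone and with voom quality weights, 0 against 1.2-fold, and 1 to 3 with each library left out in turn. The changes come from Ndel1, Reln and, against 1.2-fold, Cdk5. Against 1.2-fold, 2307 genes were higher and 2328 lower over all genes, in place of 4624 and 4633. The log2 fold change of Pafah1b1 turned to 0.004 with library size alone and, with each library left out in turn, ran from -0.093 to 0.034. That of Nde1 ran from -0.017 to 0.095 in the same way, and was 0.125 without deleted replicate 1 and wild-type replicate 4. The turned signs of 0.034 and -0.017 came without wild-type replicate 3, no turned value passed the threshold, and the cause was not tested. With the replicate block 4115 genes were higher and 4170 lower, and Ndel1 lost its call (adjusted p = 0.0734). Same-numbered libraries correlated at -0.464 to 0.014 in their deviations from group means, so the numbers are not taken to pair embryos. Of the 36 list counts, 24 moved by over 1.5 times under at least 1 alternative, most often against 1.2-fold. With library size alone the median of all genes was 0.052, the highest of the alternatives. For Reln, Tuba1a, Pafah1b1 and Nde1, changes inside each gene's own 95% interval cannot be told from none.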

Other observations

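Among 11172 named genes of at least 5 CPM on average, those whose profile over the 8 libraries was most like that of Reln were Cmtr2, Zfp655, Osgin2, Dgke and Hacd1. Likeness was the root-mean-square difference of log2 CPM after centring each gene on its mean, 0.048 for Cmtr2 and 0.055 for Hacd1. None of these 5 passed the test between the genotypes (log2 fold changes of 0.08 to 0.17, adjusted p = 0.0574 to 0.348 by edgeR). The likeness takes in the difference between the genotypes. Fold changes near that of Reln therefore follow from the choice of these genes and are no separate result. The alpha-tubulin gene Tuba1c, a close copy of Tuba1a, rose by a log2 fold change of 0.41 (adjusted p = 0.00282), with 27.6 ± 1.52 CPM in deleted and 20.8 ± 2.76 CPM in wild-type cortex.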
